A study of Mus musculus with 12 samples.

Results

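Cluster 15 was a small group of 293 cells among the 10 clusters of macrophages in MC38 tumors. MC38 is a mouse colon carcinoma line, here grown under the skin of female mice aged 8 to 12 weeks at injection. Its members were chosen by the cluster number that the authors had given each cell, and they made up 0.315% of all 93126 cells and 0.431% of the 68059 macrophages. Hosts were C57BL/6J (B6) mice or F1 animals of C57BL/6J with the Collaborative Cross (CC) strains CC001, CC002, CC007, CC036, CC075, CC079 or CC080, so that every F1 host carried a B6 genome copy. Each mouse received a single intraperitoneal dose of 200 µg isotype control antibody (clone 2A3) or anti-PD-1 antibody (aPD1, clone 29F.1A12), and the tumor was taken 48 hours later and sorted to a mix rich in CD45+ cells. Single-cell RNA was read as unique molecular identifiers (UMIs, 1 per captured transcript) from 12 pooled libraries, and the tumor, 1 hashtagged specimen of 1 pool, was the replicate (48 tumors). The study classes CC001, CC002 and CC075 as responder strains and CC036, CC079 and CC080 as non-responder strains, from their response in an earlier screen. The labels name strains only, B6 and CC007 hosts enter no class, and with 3 strains against 3 an exact permutation test over strains could not go below p = 0.1, so that p-values over tumors measure the spread between tumors, not between strains.

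Macrophages and osteoclasts, the cells that resorb bone, arise from the same myeloid precursors. The growth factors Csf1 and Il34 act through the receptor Csf1r, and the ligand Tnfsf11 (RANKL) acts through the receptor Tnfrsf11a (RANK) to raise Nfatc1, the transcription factor that switches on genes of bone resorption. Among the latter are the collagen-cutting protease Ctsk (cathepsin K), the tartrate-resistant acid phosphatase Acp5, the gelatinase Mmp9 and subunits of the proton pump that acidifies the resorbed surface.

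The label as macrophages was checked first. Of the 293 cells, 272 carried a UMI of at least 1 of the 3 macrophage markers Csf1r (the Csf1 receptor), Lyz2 (lysozyme) and Adgre1 (the surface protein F4/80). Another 21 cells carried none of them, and 12 of these had no UMI of Acp5 or Ctsk either. These cells are deep, and stray RNA can give such UMIs: at 1000 UMIs per cell Lyz2 was found in 5.1% of the T cells of cluster 3, Adgre1 in 0.2% and Csf1r in 0 of 1000. In counts summed over the cluster and scaled to counts for every 1000000 UMIs (CPM), Csf1r stood at 340 in cluster 15 against 413 in the other macrophages pooled, within the range of 302 to 524 over the other 9 clusters. Lyz2 stood at 1117 CPM against 6148 and Adgre1 at 56.4 against 153, and both were the lowest of the 10 clusters. The cluster thus held Csf1r at the level of macrophages while its Lyz2 and Adgre1 were low, and it is called cluster 15 throughout.

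Doublets (2 cells read as 1) and stray RNA of other cell types were examined next. Cluster 15 cells were deep, with a median of 10418 UMIs (1225 to 6874 in the other 9 clusters) and of 2918 genes (775 to 2543). Ribosomal protein genes took a median of 24.2% of their UMIs, against 2.86% to 17.5%. Of the 293 cells 6.83% lay in the top 5% of doublet scores of their library, against 5.45% of the other macrophages, 7.58% of cluster 2 and 65.4% of cluster 12, which carried macrophage and T cell genes together. The median doublet score of cluster 15 was 0.0673, the highest of the 10 macrophage clusters (0.0317 to 0.0634 in the others). No cluster 15 cell was marked by the caller's own threshold, but that threshold marked only 52 of all cells (0.0558%) and so gives no information.

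RNA of other types sat in few cells. At least 3 UMIs of a marker list were found in 5 cells for T cells, 2 for NK cells, 8 for B cells, 4 for fibroblasts, 3 for granulocytes, 2 for MC38 or epithelial cells, and 0 for mast cells and for erythroid cells. All 997 UMIs of the immunoglobulin gene Iglv2 and all 131 of the plasma cell gene Mzb1 came from a single cell of 48156 UMIs in a CC075 aPD1 tumor (pool 9), which had no UMI of Lyz2, Csf1r or Acp5. The other cluster 15 cell of that tumor had 38920 UMIs and held 53 of the 65 UMIs of the cytotoxic granule gene Nkg7. The fibroblast collagen gene Col1a1 was at 0 in cluster 15. Summed over the cluster, T cell markers stood at 52.2 CPM against 6.53 in the other macrophages, B cell markers at 167 against 57.2 (82.9% of them from the single cell above), fibroblast markers at 23.9 against 5.98 and MC38 or epithelial markers at 12.2 against 3.49, and the part of such RNA in the results below was not tested. The lists for cDC1 (81 cells) and pDC (169 cells) hold genes that macrophages also express, and their summed levels, 158 and 391 CPM, were below those of the other macrophages pooled, 180 and 626 CPM. Of the cell barcodes 38 of 293 (12.97%) also occurred in another library, against 10.9% of all cells, and none of these other cells was in cluster 15.

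Cells were spread thinly over tumors. Of the 48 tumors 38 held at least 1 cell and 10 held none, 8 tumors held 10 or more (198 cells together), and 4 tumors held 136 cells (46.4%). Total UMIs per tumor ranged from 88816 to 17713491, over 53 to 3082 cells. Pool 12 stood apart from the other libraries. Its 16 cluster 15 cells had a median of 1494 UMIs, below the 4135 of the other macrophages of that pool and the 10658 of the 277 cells of the other pools, and values without it are given beside the results it bears on. In 7 of the 8 tumors with 10 or more cells cluster 15 was deeper than the other macrophages of its tumor, and the exception was the CC002 aPD1 tumor of pool 12.

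Cluster 15 was then set against the other macrophages of the same tumors. The clusters had been made from these genes, so the following values describe them and carry no test. The genes highest in cluster 15 relative to the other macrophages were Ctsk, Acp5, Atp6v0d2, Slc9b2 and Mmp9, all genes known from osteoclasts, while Lyz2, the genes of MHC class II and the inflammatory chemokines were low. A level of at least 50 CPM in cluster 15 or in the other macrophages pooled was reached by 3557 genes. Of these, 24 (0.675%) had a log2 ratio above 1 in every one of the 8 tumors, with 10 CPM added to both values, and 99 (2.78%) had a ratio below -1 in every one. Without pool 12 these counts were 62 and 246 over 7 tumors, and with every cell thinned to 1000 UMIs 10 genes were above 1 in all 8.

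**Figure D1:**
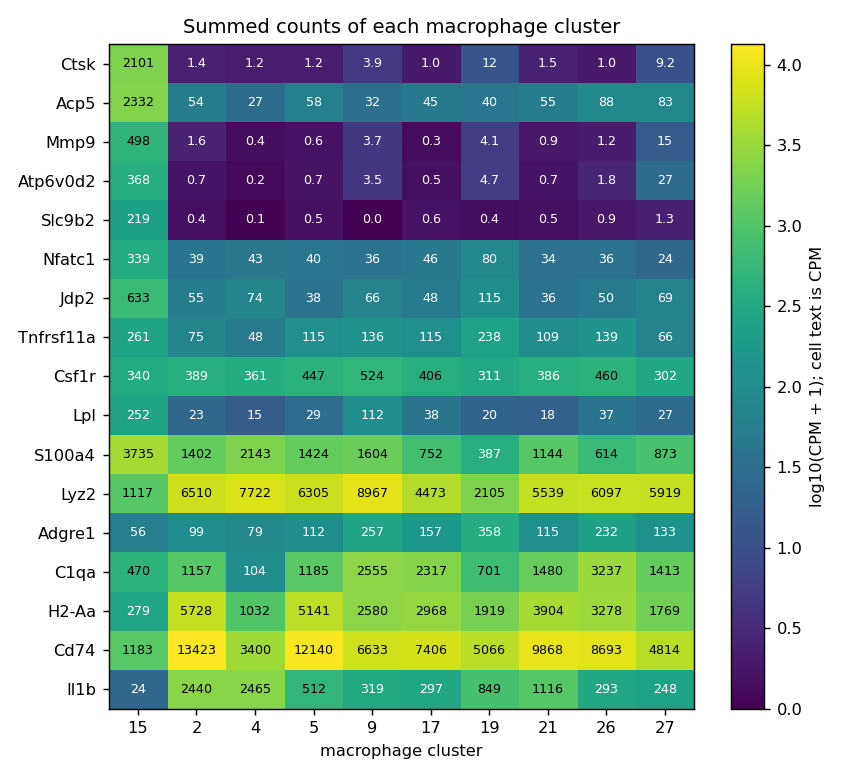
Scaled counts (CPM) of 17 genes in the summed counts of each of the 10 macrophage clusters, with the color on a log10(CPM + 1) scale and the CPM written in each cell. Ctsk reads 2101 CPM in cluster 15 and at most 12 in the others, whereas Lyz2 reads 1117 in cluster 15 and at least 2105 elsewhere.

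Most Ctsk transcripts of the sorted cells were in this cluster. In the 8 tumors cluster 15 held 3951 CPM in the CC007 isotype tumor of pool 7, 1601 in the CC075 isotype tumor of pool 11, 1291, 4107 and 1185 in the CC079 isotype tumors of pools 1, 2 and 5, 1740 in the CC079 aPD1 tumor of pool 5, 1132 in the CC080 aPD1 tumor of pool 4 and 0 in the CC002 aPD1 tumor of pool 12. The other macrophages of the same tumors held between 0.8 and 2.4 CPM. The 7 tumors outside pool 12 were thus all far above their own macrophages, and the tumor of pool 12 was not. Its 10 cells had 57399 UMIs in all, so that a count of 0 allows up to 52.3 CPM of Ctsk. The median log2 ratio over the 8 tumors was 7.00. Of all 8116 Ctsk UMIs in the 93126 cells 86.8% were in cluster 15, and the next largest part, 5.25%, was in cluster 22, whose highest marker list was that of fibroblasts. The sort took about 90% CD45+ cells, so fibroblasts, which lack CD45, are few here and these shares do not hold for whole tumors.

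Acp5 was higher in all 8 tumors but was less restricted. Cluster 15 held 87.1 CPM in the CC002 aPD1 tumor and between 1286 and 5030 in the other 7, against 45.3 to 69.2 in the other macrophages of those tumors. The ranges of the cluster and of the other macrophages did not overlap, but the CC002 tumor lay close to the latter. Its value rests on very few Acp5 UMIs, as its cluster 15 cells had 57399 UMIs in all. Only 26.9% of the 29056 Acp5 UMIs were in cluster 15, with 27.1% in the much larger cluster 26. The gene lies on chromosome 9 (22126727 to 22135711, minus strand) of GRCm38 in the GENCODE vM21 annotation. The 250 bases before 1 of its 3 annotated starts (chr9:22130599-22130848, GRCm38.p6, RefSeq, written along the minus strand) are shown because both Acp5 and Nfatc1 were high in cluster 15 and because this is the only one of the 3 starts whose window holds both motifs, with capitals for TTTCCA, the reverse complement of the core TGGAAA of NFAT factors, and for CACATG, the reverse complement of the CATGTG known from binding of Mitf.
Acp5 upstream: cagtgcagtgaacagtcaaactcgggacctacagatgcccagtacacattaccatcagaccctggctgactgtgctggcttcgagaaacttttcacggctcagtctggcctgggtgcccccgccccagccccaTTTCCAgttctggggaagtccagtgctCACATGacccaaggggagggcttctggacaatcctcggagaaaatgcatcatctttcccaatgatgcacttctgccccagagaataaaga
On either strand TGGAAA occurred in 18.6%, CATGTG in 12.3% and both together in 2.68% of 32851 such windows, so the letters are common and the match is a description only. The capitals do not overlap, and binding was not measured.

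The other 3 leading genes, Mmp9, Atp6v0d2 and Slc9b2, were high as well. Mmp9 stood at 498 CPM in the summed counts of cluster 15 against 2.08 in the other macrophages, and it varied widely over tumors, from 77.7 to 1003 CPM. The largest part of all Mmp9 UMIs, 52.0%, was in cluster 20, which is no macrophage cluster, and 29.5% in cluster 15. By level Mmp9 was at 528 CPM in cluster 16, whose highest marker list was that of granulocytes, above cluster 15, and at 109 CPM in cluster 20. Atp6v0d2, the d2 subunit of the proton pump that also serves cell fusion, stood at 368 CPM against 2.73, and Slc9b2, a sodium and proton exchanger, at 219 against 0.622. Of all UMIs of Atp6v0d2 and Slc9b2, 58.9% and 68.6% were in cluster 15. Both were higher in value in cluster 15 in all 8 tumors, but in that of pool 12 the values (87.1 CPM of Atp6v0d2 and 17.4 CPM of Slc9b2) rest on very few UMIs. That of Slc9b2 lies below the 52.3 CPM that a count of 0 allows there, so it gives no direction in that tumor.

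**Figure D2:**
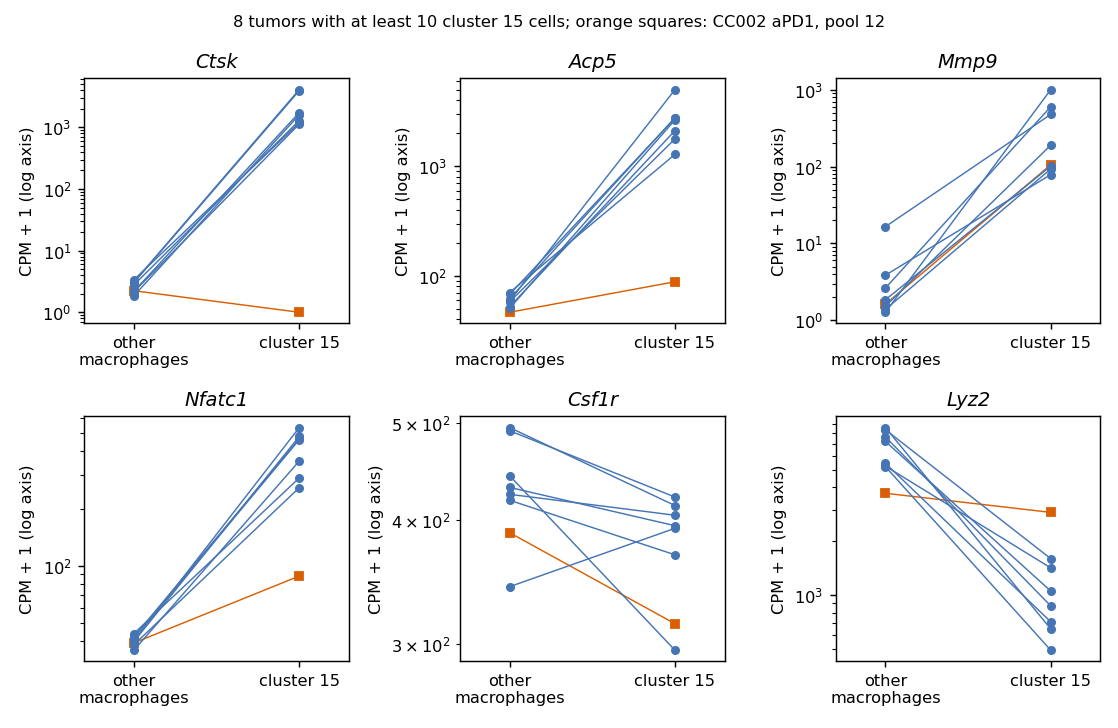
CPM + 1 on log axes of 6 genes in the other macrophages and in cluster 15 of the same tumor, with a line for each of the 8 tumors with at least 10 cluster 15 cells and orange squares for the CC002 aPD1 tumor of pool 12. Ctsk in cluster 15 reads 1132 to 4107 CPM in 7 tumors and 0 in the orange one, and Csf1r stays between 295 and 494 CPM in every tumor and group.

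A set of 30 receptors, transcription factors and effector genes known from osteoclasts was taken by role, after their values had been seen. Of the 29 with 10 CPM or more in cluster 15 or in the other macrophages pooled, 25 had a positive and 4 a negative median log2 ratio. Of the 29, 16 were above 1, and the median was 1.05, beside -0.05 for all 8552 genes at that level, of which 273 were above 1. Some members, such as Itgb3, reached that level through cluster 15 alone. As the set was also chosen with its values known, these counts are a description and no support. Among the receptors, Tnfrsf11a stood at 261 CPM against 106 and was higher in 8 of 8 tumors, although cluster 19 held nearly as much (238 CPM), and Oscar, the osteoclast-associated immunoglobulin-like receptor, had 40 of its 55 UMIs in cluster 15. The paired chains Trem2 (median log2 ratio 0.13) and Tyrobp (-0.26) were near the level of the other macrophages. Among the transcription factors Nfatc1 stood at 339 CPM against 38.1 and Jdp2, a partner of the AP-1 factors, at 633 against 52.3, whereas Fos was below the other macrophages in all 8 tumors (median log2 ratio -1.10). Of the 2 fusion proteins Ocstamp had a median ratio of 1.76 and Dcstamp of 0.59, the latter with a range from -2.30 to 1.82. In the group for acid and ion transport Atp6v1b2 (1.75) and the carbonic anhydrase Car2 (1.44) were higher, and the chloride channel Clcn7 (0.36) and its partner Ostm1 (0.07) were close to 0. Among adhesion genes the integrin chain Itgav (1.45) and the tyrosine kinase Src (1.58) were higher, Itgav at 333 CPM beside 284 in cluster 19. Itgb3, the partner of Itgav, had only 35 UMIs in cluster 15 (10.4 CPM against 0.554 in the other macrophages pooled), was at 0 in cluster 15 of 4 of the 8 tumors, and had a median ratio of 0.17 with the added 10 CPM.

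**Figure D3:**
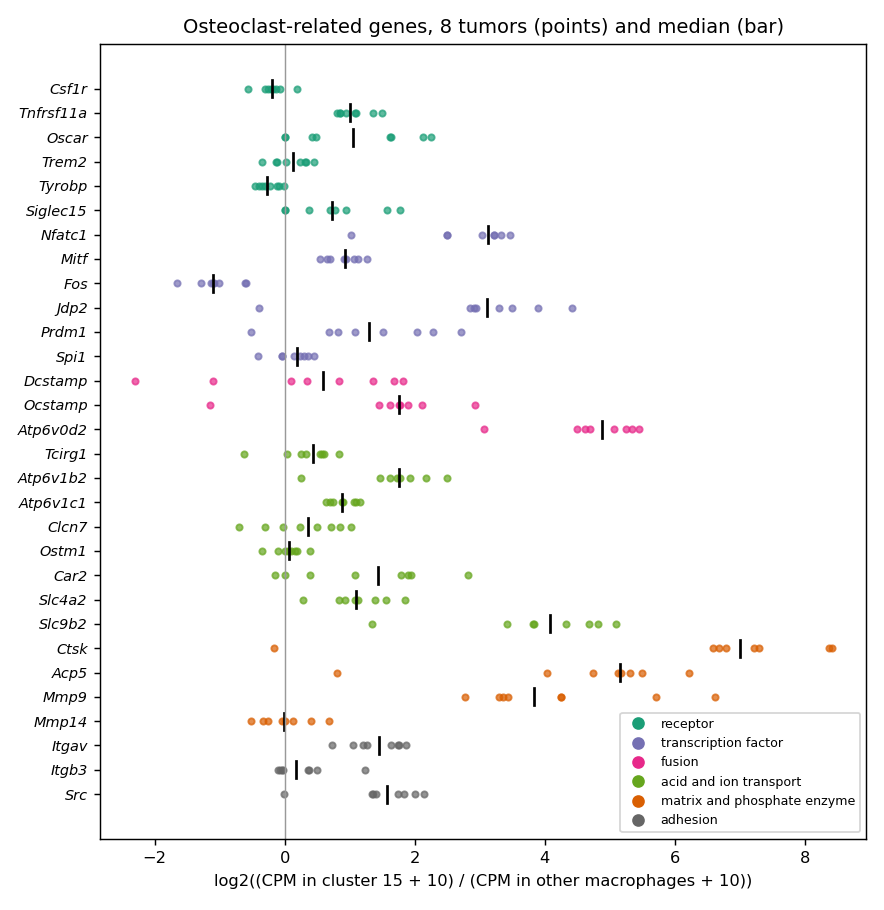
Log2 ratio of cluster 15 to the other macrophages of the same tumor, with 10 CPM added to both values, for 30 osteoclast-related genes colored by role. Points are the 8 tumors and bars their medians, from -1.10 for Fos to 7.00 for Ctsk.

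Genes outside that set also led the cluster. Lpl, the lipoprotein lipase, stood at 252 CPM against 29.9 and was higher in 8 of 8 tumors. Bdh2, a cytosolic dehydrogenase, stood at 195 against 6.40 CPM, and the mitochondrial protein gene Chchd10 at 200 against 21.7. The metallothionein Mt3 stood at 179 against 0.477 CPM, but was at 0 in the CC002 tumor of pool 12 and ranged up to 309 CPM elsewhere. The calcium-binding protein S100a4 was at 3735 against 1099 CPM, the highest of the 10 clusters. Genes of oxidative phosphorylation were higher as a group, with 17 of 17 at a positive median ratio and a list median of 0.79. S phase genes (16 of 16 positive, list median 0.96) and G2 and M phase genes (19 of 20 positive, 0.45) were also above the other macrophages pooled, beside 3957 of all 8552 genes positive. Cluster 17 held more, with 572 CPM of the proliferation gene Mki67 against 152 in cluster 15.

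The low genes were those of MHC class II, inflammation and the general macrophage program. All 9 genes of MHC class II presentation had a median ratio below -1 (list median -2.54), with H2-Eb1 at 176 CPM against 3040 and the invariant chain Cd74 at 1183 against 9989. Of 13 genes of MHC class I presentation only 2 were below -1 (list median -0.46). Of 17 cytokine and chemokine genes 14 were below -1 (list median -2.43), with Il1b, which encodes interleukin 1 beta, at 24.2 CPM against 1116 and the monocyte-attracting chemokine Ccl2 at 93.7 against 881. Genes of the type I interferon response (17 of 21 below -1) and of complement C1q and its receptors (9 of 10) were low as well, and 8 of 10 monocyte/macrophage markers were below -1 (list median -1.82). Apoe, which encodes a lipid carrier of macrophages, stood at 642 CPM against 4308 and the mannose receptor Mrc1 at 31.0 against 232, and both were lower in all 8 tumors. Over all 8552 genes 843 were below -1. Over 13051 genes the profile of cluster 15 had its highest Pearson correlations with clusters 26 (r = 0.934) and 17 (r = 0.933), both macrophage clusters. The measure does not separate macrophages from other cells. Cluster 14 (0.895), no macrophage cluster, lay above macrophage clusters 21 (0.890), 4 (0.855) and 19 (0.846).

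Depth could set the share of cells with a UMI, so each cell was thinned to 1000 UMIs, which left out 5 of the 293 cells. Ctsk was then found in 30.6% of cluster 15 cells (95% interval 25.3% to 36.2%, exact binomial, counting error only) and in 0 to 1% of the other macrophage clusters, with 0 in the T cells of cluster 3. Acp5 was found in 49.3%, against 2.4% to 8.1% in the other macrophage clusters and 2.8% in cluster 3. In summed counts Acp5 stood at 11.2 to 51.2 CPM in the clusters with the T cell list highest and at 3.52 in cluster 22, and whether stray RNA had a part in these low values was not tested. Csf1r was found in 33.0%, inside the range of 22.7% to 37.4% for the other clusters, and its median log2 ratio turned from -0.20 to 0.14 when cells were thinned. Lyz2 was found in 30.2% (47.1% to 94.5% elsewhere, and 5.1% in cluster 3). Unthinned, the shares in cluster 15 were 37.5% for Ctsk, 74.1% for Acp5, 84.6% for Csf1r and 54.9% for Lyz2. At full depth 98 of the 293 cells had at least 3 UMIs of both Ctsk and Acp5, compared with 7 of 67766 other macrophages and 0 of 25067 other cells.

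Cluster 15 was not uniform. At 1000 UMIs, 88 cells had Ctsk, 59 had Acp5 without Ctsk and 141 had neither. These 3 ranges are cuts by detection and not cell types, and 11 of the 88 and 30 of the 59 rested on a single UMI. Whether the cells form a gradient or separate states was not tested. The cells with Ctsk also held the most Mmp9 (1571 CPM in summed counts, against 30.8 and 11.7) and Dcstamp (165 against 19.04 and 5.52), and Oscar was found in 22 of them and in 0 cells of the other ranges. Nfatc1 (516, 470 and 172 CPM) and Jdp2 (1076, 854 and 258 CPM) were also high in the cells with Acp5 alone. Lyz2 ran the other way, with 145 CPM in cells with Ctsk, 750 with Acp5 alone and 1889 with neither, and the median over cells was 0 in the first and 468 CPM in the last of these. C1qa followed Lyz2 (55.9, 281 and 812 CPM), whereas Csf1r was highest in the cells with Ctsk (456, 352 and 260 CPM). Cell cycle genes summed to a median over cells of 348 CPM in the cells with Ctsk, 2652 in those with Acp5 alone and 2079 in those with neither. The median depth of the 3 ranges was 10891, 10567 and 10391 UMIs. Across the 288 thinned cells Spearman's rho was 0.73 for Ctsk with Acp5, 0.62 for Ctsk with Mmp9, -0.34 for Ctsk with Lyz2 and 0.22 for Nfatc1 with Acp5, as a description over cells that share libraries.

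**Figure D4:**
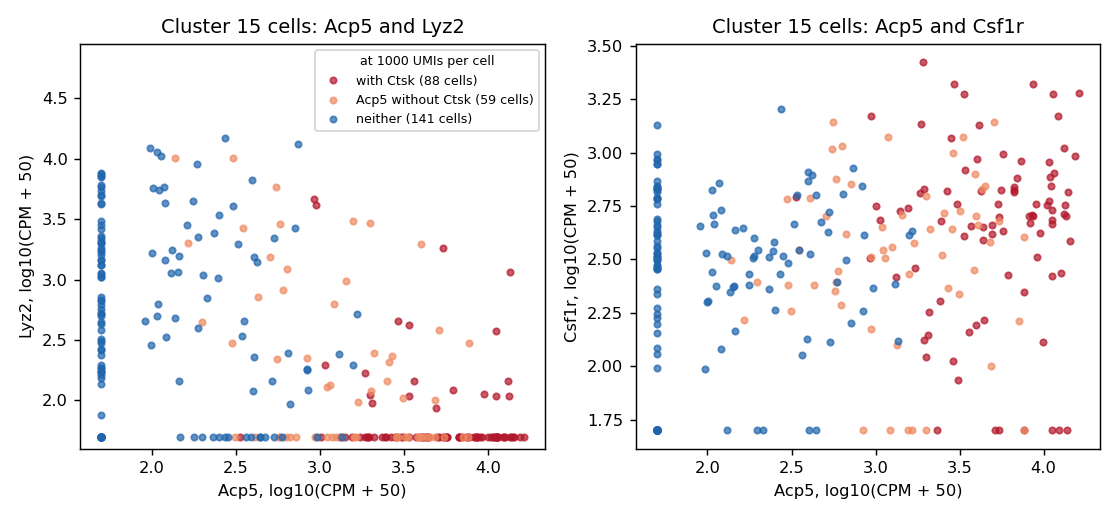
Each point is 1 of the 288 cluster 15 cells with at least 1000 UMIs, with log10(CPM + 50) of Acp5 against that of Lyz2 (left) and of Csf1r (right), colored by what the cell held after thinning to 1000 UMIs. Cells with Ctsk sit at high Acp5 and mostly at the bottom of the Lyz2 axis (145 CPM of Lyz2 in summed counts, against 1889 in cells with neither gene).

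The ranges were not spread evenly over strains. Of the thinned cells 0 of 7 from CC001 hosts had Ctsk or Acp5, and 14 of 25 (56%) from CC007 hosts had Ctsk. The share with Ctsk was 33.3% of 129 cells in CC079, 32.4% of 37 in CC080, 23.5% of 34 in CC075, 21.4% of 14 in B6, 19.2% of 26 in CC036 and 18.8% of 16 in CC002. Pool 12 held 9 of the 16 CC002 cells and 4 of the 7 CC001 cells, none of them with Ctsk, and without it the share was 3 of 7 (42.9%) in CC002 and 0 of 3 in CC001. The cells of a strain come from few tumors, and no test was made.

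The ligands of the pathway were measured in other cells. Tnfsf11 stood at 781 CPM in cluster 10, whose highest marker list was that of T cells and which held 57.5% of its 2577 UMIs, at 130 in cluster 13, a T cell cluster too, and at 1.49 in cluster 15. Csf1 had its highest level in cluster 16 (670 CPM), whose highest list was that of granulocytes, and 46.6% of its 7500 UMIs were in cluster 20. Il34 was highest in clusters 22 (94.5 CPM) and 20 (61.1 CPM). Tnfrsf11b, the soluble decoy of Tnfsf11, had only 50 UMIs in all cells, 30 of them in cluster 22. Over the 48 tumors Tnfsf11 ranged from 0 to 114 CPM of all cells with a median of 3.75.

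The share of cluster 15 among the macrophages of a tumor was compared between response classes, treatments and strains. After aPD1 cluster 15 was scarcer in tumors of responder strains than in those of non-responder strains, and no difference was found between treatments or, after correction, over strains. In the 10 responder strain tumors given aPD1 the lowest share was 0%, the median 0.126% and the highest 0.478%. In the 9 non-responder strain tumors given aPD1 the lowest was 0.154%, the median 0.358% and the highest 1.68%. Every non-responder strain tumor held cluster 15 cells, but the groups overlapped. The highest responder strain value was that of the CC002 tumor of pool 12, 7 of the 9 non-responder strain tumors lay below it, and 2 of them, CC079 of pool 2 (0.154%) and CC036 of pool 9 (0.158%), lay below the next (0.245%). The means were 0.150% ± 0.144 (SD, n = 10) and 0.559% ± 0.541 (SD, n = 9), the median difference between pairs of tumors was -0.213 percentage points, and a two-sided exact permutation test of the rank sum gave p = 0.00749, adjusted over 6 share tests to 0.0450. Without pool 12 the difference was -0.239 points (adjusted p = 0.0148).

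That call was not stable. Within pools that held both classes the mean difference was -0.465 points over 8 pools (exact permutation by sign flips, adjusted p = 0.0633). In pools 1 to 6 alone it was -0.303 points (exact permutation, adjusted p = 0.0238) and in pools 7 to 12 alone -0.13 (exact permutation, adjusted p = 0.952). It was also lost without CC001 (adjusted p = 0.567), CC036 (0.0537), CC079 (0.0781) or CC080 (0.202) by the same exact test, without cells of the top doublet scores (0.0596), and without the 2 CC080 tumors that carry the same animal identifier (0.0911). Class and strain cannot be told apart here. Among the 8 pools with both classes, only pool 9 had the higher share after aPD1 in the responder strain (CC075 0.209%, CC036 0.158%). The 2 cluster 15 cells of that CC075 tumor were those described above, 1 with immunoglobulin RNA and 1 with most of the Nkg7 UMIs. The share without them was not tested.

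In isotype-treated tumors the share had a median of 0.111% (0 to 2.05%) in the 10 tumors of responder strains and of 0.370% (0 to 2.29%) in the 9 of non-responder strains. The groups overlapped over nearly their whole ranges (difference -0.142 points, exact permutation, adjusted p = 0.621). Between aPD1 and isotype the median difference was 0 points in responder strains (permutation test of the rank sum, adjusted p = 0.912), where the aPD1 tumor was higher in 3, lower in 5 and equal in 2 of 10 pairs from the same pool and strain. The means there were 0.150% ± 0.144 (SD) after aPD1 and 0.436% ± 0.744 (SD) after isotype. In non-responder strains the median difference was 0.0203 points (exact permutation, adjusted p = 0.912), with 5 of 9 pairs higher and 4 lower. The treatment effect of responder strains minus that of non-responder strains was -0.196 points (exact permutation, adjusted p = 0.651).

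**Figure D5:**
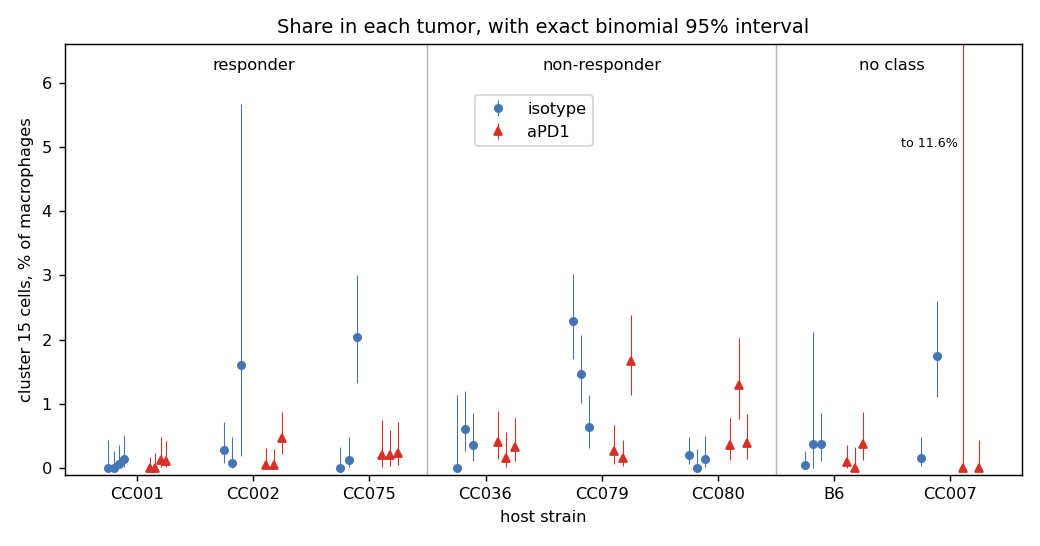
Cluster 15 cells as a percentage of the macrophages of each tumor, by host strain, with isotype as circles and aPD1 as triangles and bars for the exact binomial 95% interval. CC079 tumors range from 0.154% to 2.29% while all 8 CC001 tumors stay at or below 0.144%, and the interval of the CC007 aPD1 tumor with 30 macrophages runs past the axis to 11.6%.

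Strains differed in order but not beyond the correction. CC079 had the highest mean share, 1.08% ± 0.860 (SD, n = 6 tumors), and CC001 the lowest, 0.0574% ± 0.0657 (SD, n = 8). CC079 supplied 129 of the 293 cells. In between stood CC007 (0.477%), CC075 (0.473%), CC002 (0.426%), CC080 (0.398%), CC036 (0.314%) and B6 (0.214%), and neighbors in this order overlapped. The means of CC007, CC075, CC002 and CC080 were each carried by 1 tumor and without it were 0.0560%, 0.159%, 0.191% and 0.219%, and by the median the order between CC079 (1.06%) and CC001 (0.0321%) was CC036 (0.353%), CC080 (0.283%), B6 (0.237%), CC075 (0.206%), CC002 (0.184%) and CC007 (0.0840%). Without pool 12 the mean of CC002 was 0.120% ± 0.109 (SD, n = 4) and that of CC001 0.0331% ± 0.0559 (SD, n = 6). The Kruskal-Wallis statistic over 8 strains was 13.8 (permutation test, p = 0.0421, adjusted p = 0.126), and 14.7 without pool 12 (adjusted p = 0.0779). It passed when only cluster 15 cells with a UMI of Acp5 or Ctsk were counted (18.3, adjusted p = 0.0137) and in pools 1 to 6 alone (13.1, adjusted p = 0.0238). The former setting was chosen after seeing the data and depends on depth. Of pool 12, whose cluster 15 cells were shallow and which held CC001 and CC002 tumors only, it counted 3 cells, all from the CC002 aPD1 tumor. The 10 tumors with no cluster 15 cell allow shares of up to 0.142% to 10% of their macrophages.

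Single tumors stood out within a strain. The CC075 isotype tumor of pool 11 had 2.05% (25 of 1222 macrophages), while the next CC075 tumor had 0.245%. The CC007 isotype tumor of pool 7 had 1.74% (23 of 1322) and the CC080 aPD1 tumor of pool 4 had 1.29% (18 of 1395). In CC079 the isotype tumors of pools 1 and 2 were high (2.29% and 1.47%) and their aPD1 partners low, whereas in pool 5 the aPD1 tumor (1.68%) was above its isotype partner (0.643%).

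Genes within cluster 15 were compared between classes from counts summed per tumor. Only 7 tumors of classed strains held at least 10 cells, 2 of responder strains (CC002 aPD1, pool 12, and CC075 isotype, pool 11) and 5 of non-responder strains (CC079 in 4 and CC080 in 1). Any fit to these tumors without pool 12 or without CC075 thus leaves 1 responder strain tumor and no replicate of that class. With treatment in the model, edgeR's quasi-likelihood test called 19 of 4817 genes (0.394%) higher and 2 (0.0415%) lower in responder strains at an adjusted p under 0.05. Of cytokine and chemokine genes 3 of 10 tested (Cxcl2, Il1rn and Tnfaip3) were called higher and 0 lower, each with its highest level in the CC002 tumor of pool 12, and 0 of the 3 calls remained without that pool. None of the 25 osteoclast-related genes tested was among them, and their median log2 difference was -0.21, beside -0.02 for all genes. Without pool 12 the counts were 14 and 9, and 7 of the 21 genes remained, namely Acod1, AW112010, AY036118, Cmss1, Gm10260, Gm42418 and Il31ra. With tumors of at least 3 cells (19 tumors) the counts were 0 and 1.

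The genes with the smallest p had the same class order in the other macrophages. The predicted gene Gm10260 was at 0 CPM in both responder strain tumors and at 1287 to 1445 in the 5 others, and in the other macrophages of these tumors it stood at 0.882 and 1.69 against 700 to 973 CPM. The receptor gene Il31ra was at 1341 and 1343 CPM against 323 to 525 (log2 difference 1.76 ± 0.21, SE, edgeR adjusted p = 0.00103), and in the other macrophages at 2433 and 1900 against 862 to 1033. Gm42418, which overlaps ribosomal RNA sequence, was at 35280 and 14190 CPM against 5245 to 8776 (1.69 ± 0.20, adjusted p = 0.00103), and AW112010 at 418 and 94.8 against 17.1 to 64.3 CPM (2.50 ± 0.34, adjusted p = 0.00349). Both showed this order in the other macrophages as well. Bdh2 was the other gene lower in responder strains, at 34.8 and 80.0 CPM against 193 to 326 (-1.96 ± 0.39, adjusted p = 0.0466).

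Acp5 and Ctsk were lower in responder strain tumors in value but were not called. Acp5 was at 87.1 and 1286 CPM against 1783 to 5030, without overlap (-2.14 ± 0.49, edgeR adjusted p = 0.107). Ctsk was at 0 and 1601 CPM against 1132 to 4107 (-1.43 ± 0.68, adjusted p = 0.546), and the CC075 tumor lay within the range of the non-responder strains. Lyz2 was at 2892 and 708 CPM against 492 to 1595 (0.92 ± 0.51, adjusted p = 0.647), and it turned to -0.77 without pool 12. Without pool 12 Acp5 was still lower in value (-1.38, adjusted p = 0.115) and Ctsk was at -0.50 (adjusted p = 0.863). The low Ctsk and the high Lyz2 thus lay in the CC002 tumor of pool 12. Its cluster 15 cells were shallow (median 1486.5 UMIs), while its other macrophages were not (median 4557 UMIs). At 1000 UMIs per cell Ctsk was found in 3 of 7 CC002 cells of the other pools and in 0 of 9 of pool 12.

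For treatment the same 7 tumors were used with strain in the model, so that only CC079, with 3 isotype tumors and 1 aPD1 tumor, informed the fit. The single aPD1 tumor is assumed to vary like the isotype tumors, so that the p-values below compare that tumor with 3 others and have no replicate of the treatment. Of 6008 genes 2 (0.0333%) were higher after aPD1 and 0 (0%) lower by edgeR, with 113 and 127 genes at an unadjusted p under 0.05, and DESeq2 called 0 in either direction (7 and 10 unadjusted). Cxcl10, a chemokine that attracts T cells, was at 6.58, 11.2 and 0 CPM in the isotype tumors of CC079 and at 164 in the aPD1 tumor (4.31 ± 0.52, edgeR adjusted p = 0.000103). Ly6a, a surface antigen also called Sca-1, was at 54.0, 22.4 and 0 against 304 CPM (2.95 ± 0.41, adjusted p = 0.000769). Both values rest on a single aPD1 tumor, and in CC079 the other macrophages had no such order for Cxcl10 (260, 245 and 222 against 170 CPM). None of the 27 osteoclast-related genes tested was called. Leaving out a strain other than CC079 cannot change this contrast and so is no check of it.

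Whether class or treatment differences in cluster 15 differed from those in the other macrophages was tested with the tumor as a block. The edgeR p-values of this test match a normal distribution of the value over its SE. They thus rest on a spread taken as known and hardly on that of the single gene over these few tumors. Very small ones can therefore overstate the evidence. Unlike in the tests within cluster 15, the class difference was not adjusted for treatment here, nor the treatment difference for strain. The responder strain tumors were an aPD1 tumor of CC002 and an isotype tumor of CC075. The part of treatment in the class differences, and of strain in the treatment differences, was not tested. Of 11457 genes edgeR called 19 (0.166%) with a class difference that was higher in cluster 15 than in the other macrophages and 10 (0.0873%) lower. DESeq2 called 0 and 0. Acp5 had the smallest p of all, with a class difference 2.45 ± 0.36 log2 units lower in cluster 15 (adjusted p = 1.18e-07). The value was -1.44 without CC002 and -5.06 without CC075, each with 1 responder strain tumor left and so no replicate of that class. It was -2.21 without CC079, where 1 non-responder strain tumor was left. Its level in the other macrophages was 45.3 and 69.2 CPM in responder strain tumors and 49.4 to 66.5 in the others. Jdp2 (-1.57 ± 0.36, adjusted p = 0.00684) was lower too, at 34.8 and 670 CPM against 391 to 1052. Mmp9 was called lower (-1.88 ± 0.42, adjusted p = 0.00684), but in cluster 15 itself it stood at 105 and 477 CPM against 77.7 to 600. It was the other macrophages of the CC075 tumor that stood apart, with 15.5 CPM against at most 2.86 in the other 6 tumors. Without CC075 the value of Mmp9 was -0.13. Thus 3 of the 30 osteoclast-related genes tested passed, all with a lower class difference in cluster 15, and 0 higher. Of these the call of Mmp9 came from the other macrophages of the CC075 tumor, and that of Jdp2 did not remain without pool 12. Ctsk did not pass (-1.31 ± 0.54, adjusted p = 0.659).

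Among the genes higher were the macrophage elastase Mmp12 (6.50 ± 0.99, adjusted p = 2.68e-07), Cxcl2, a chemokine for neutrophils (2.71 ± 0.43, adjusted p = 1.65e-06), and Ccl2 (2.80 ± 0.46, adjusted p = 3.83e-06), all by edgeR. Mmp12 was at 244 CPM in cluster 15 of the CC002 tumor of pool 12 and at 0 to 2.96 in the other 6. Cxcl2 stood at 3432 CPM in that tumor and at 0 to 228 elsewhere, and Ccl2 at 1010 and at 0 to 89.5. The differences of Mmp12, Cxcl2 and Ccl2 thus rested on 1 tumor. That tumor was given aPD1, and Mmp12, Cxcl2 and Ccl2 were also among the calls of the treatment test below. Of 18 cytokine and chemokine genes tested 4 were called higher and 1 lower, namely Ccl2, Ccl4, Ccl5, Cxcl1 and Cxcl2. Without pool 12, 12 of the 29 calls remained, Acp5 and Mmp9 among them and Mmp12, Cxcl2, Ccl2 and Jdp2 not, and the values of Cxcl2 and Ccl2 turned to -0.17 and -1.43. Without CC079 hosts no call was left, and with tumors of at least 3 cells none of the 29 was called.

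For treatment the same test called 20 genes (0.175%) with a higher and 10 (0.0873%) with a lower difference in cluster 15 than in the other macrophages, and DESeq2 called 5 and 0. The 3 aPD1 tumors (CC002, CC079 and CC080) and 4 isotype tumors (CC075 and 3 of CC079) differ in strain as well. The genes of smallest p among those higher were Cxcl2 (3.45 ± 0.40, edgeR adjusted p = 3.52e-14), Cxcl10 (3.99 ± 0.48, adjusted p = 7.64e-13) and Ly6a (2.38 ± 0.37, adjusted p = 6.50e-07). Cxcl10 was at 314, 164 and 24.6 CPM in the aPD1 tumors and at 0 to 11.2 in the isotype tumors, without overlap, whereas Cxcl2 was at 3432, 17.9 and 228 against 0 to 104 CPM, with overlap. The lower genes included the topoisomerase Top2a (-1.85 ± 0.36, adjusted p = 0.000282) and the histone genes Hist1h2ap (-2.00 ± 0.43, adjusted p = 0.00242) and Hist1h1b (-1.65 ± 0.36, adjusted p = 0.00242), which are made in dividing cells. Top2a was at 0, 143 and 49.2 CPM after aPD1 and at 63.0 to 269 after isotype, with overlap. Of the lists, 2 of 21 genes of the type I interferon response and 4 of 18 cytokines and chemokines were called higher, 0 of either lower (of the 4 cytokines Cxcl2 and Il1b remained without pool 12, and Ccl2 and Il1a did not), and 2 of 20 G2 and M phase genes lower. Of the 30 osteoclast-related genes 0 were called higher and only Dcstamp lower (-1.78 ± 0.44, adjusted p = 0.0259). The ligand gene Csf1 was called higher (4.30 ± 1.09, adjusted p = 0.0358) from 7 UMIs (122 CPM) in the CC002 tumor, with at most 18.4 CPM in the other 6. Neither Csf1 nor Dcstamp, at 0 UMIs in the CC002 tumor, was among the calls that remained without pool 12. Without pool 12 the counts were 13 and 10, and 16 of the 30 calls remained, Cxcl10, Cxcl2, Ly6a, Top2a, Hist1h2ap and Hist1h1b among them. The value of Cxcl2 was then 1.85, that of Hist1h2ap -1.86 and that of Ly6a 2.49. Without CC080 Top2a (-1.49, adjusted p = 0.0855) and Hist1h2ap (-1.65, adjusted p = 0.128) missed the threshold, without CC075 Hist1h2ap did (-1.78, adjusted p = 0.0598), and without CC079 all 6 did, with Hist1h2ap at -4.48 and Top2a at -3.54. With tumors of at least 3 cells 0 and 0 genes were called, and with tumors of at least 20 cells (4 tumors) the counts were 10 and 3 and the value of Cxcl2 turned to -0.96.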

How the data were processed

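The authors deposited raw UMI counts per gene and cell with a metadata table that gives the library, hashtag, strain, treatment and cluster number of each cell. They processed reads with Cell Ranger (GRCm38) and Seurat 5.0.1 according to the submitters' notes, removed cells of high mitochondrial or ribosomal share, and clustered after regressing out depth and cell cycle and correcting for library processing date. The number of cells limits each value, since 198 of the 293 cells lie in 8 tumors. Cells were not refiltered. Doublet scores were computed with scanpy 1.11.5 (Scrublet). The automatic threshold marked 0.0558% of cells and had not worked, so the top 5% of scores in each library was used instead. Levels are CPM of summed counts. Log2 ratios used 10 CPM as pseudocount and tumors with at least 10 cluster 15 cells.

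Shares were compared by permutation of tumors with Benjamini-Hochberg adjustment over 6 tests. Summed counts were tested with edgeR 4.0.16 (TMM, filterByExpr, glmQLFTest) in R 4.3.3, with DESeq2 1.42.0 as an alternative and SE as the absolute log2 difference over the square root of F. The scripts were checked on simulated data. Tumors of a pool share a library according to the labels, so that the pool pairs them. Named genes are the 25 with the highest and the 15 with the lowest median ratio, list members, markers and genes of smallest p in each test, of which the text gives a part. The cluster, the gene lists and the alternatives were chosen with earlier results of these data known. Coordinates are GRCm38 (GENCODE vM21).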

Additional observations from a re-analysis of the deposited data

Results flagged for a closer look

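Shares and gene levels were examined for a single tumor far from the others of its group, by the gap to the nearest tumor over the range of the group. Of 25 such groups 6 held such a tumor. The groups share tumors and many shares lie at or near 0, so the number expected by chance is not known. They were the CC002 aPD1 tumor of pool 12 among responder strain tumors after aPD1 (0.478%), the CC002 isotype tumor of pool 12 within its strain (1.6%, 2 of 125 macrophages), the CC007 isotype tumor of pool 7 (1.74%), the CC075 isotype tumor of pool 11 (2.05%), the CC080 aPD1 tumor of pool 4 (1.29%), and, for Lyz2 in cluster 15, the CC002 aPD1 tumor of pool 12 with 2892 CPM, where the next tumor had 1595.

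Contrasts that differed between cluster 15 and the other macrophages of the same tumors by the edgeR interaction test were 19 genes higher and 10 lower for class, and 20 higher and 10 lower for treatment. For class the named genes were Mmp12 (6.50 log2 units, adjusted p = 2.68e-07), Cxcl2 (2.71, 1.65e-06), Ccl2 (2.80, 3.83e-06), Acp5 (-2.45, 1.18e-07), AA467197 (-3.04, 5.61e-05), Gatm (-1.74, 0.00214), Mmp9 (-1.88, 0.00684) and Jdp2 (-1.57, 0.00684). For treatment they were Cxcl2 (3.45, 3.52e-14), Cxcl10 (3.99, 7.64e-13), Ly6a (2.38, 6.50e-07), Top2a (-1.85, 0.000282), Hist1h2ap (-2.00, 0.00242) and Hist1h1b (-1.65, 0.00242). DESeq2 called none of the genes for class, and for treatment Cxcl10 but not the other 5 named. The edgeR p-values given here hardly hold the spread of a single gene over tumors, as said above.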

How the results depend on the processing

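Of 88 share values under alternatives 65 kept direction and side of the threshold. The lower share in responder strains after aPD1 lost its call without cells of the top doublet scores (-0.224 points), without the tumors sharing an animal identifier (-0.194) and in pools 7 to 12 (-0.13), and ranged from -0.275 to -0.158 with a strain left out. The difference over strains passed in pools 1 to 6 (13.1) and for cells with Acp5 or Ctsk (18.3, chosen after seeing the data, as were the settings without pool 12 and with 3 cells). The class difference under isotype turned to 0.07 in pools 7 to 12 and ranged from -0.469 to 0 without a strain. The treatment difference in non-responder strains turned to -0.0779 as a difference of means, -0.0704 without the shared identifier and -0.0551 in pools 1 to 6 (-0.290 to 0.199 without a strain). In responder strains it was -0.286 as a mean over pairs of the same pool and strain, 0.0150 without tumors under 500 cells and 0.0590 in pools 7 to 12. It was 0 there without top doublet scores, for cells with Acp5 or Ctsk and without pool 12 (-0.0535 to 0.0590 without a strain). The treatment effect of responder minus non-responder strains ranged from -0.358 to 0.0672.

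With the pool as replicate block the class difference after aPD1 was -0.465 points (adjusted p = 0.0633, exact permutation by sign flips) and the treatment difference in non-responder strains -0.0779, and the block changed no other share call. No paired analysis was possible because the 7 tumors left no residual degrees of freedom beside the pool for the gene tests within cluster 15, and the tests against the other macrophages hold the tumor as a block. Without CC079 the tests within cluster 15 could not be fitted. Where a strain left out leaves an arm with 1 tumor, that tumor is assumed to vary like the others.

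Against the other macrophages 10 genes were higher in every tumor after thinning, and 62 higher and 246 lower without pool 12. The Csf1r ratio turned to 0.14 after thinning. For class within cluster 15 the higher and lower counts were 68 and 25 without a filter on low counts, 60 and 63 with 20 cells per tumor, 12 and 11 without top doublet scores, 0 and 1 with 3 cells, and 14 and 9 without pool 12 (10 to 66 and 1 to 68 without a strain). For treatment they were 0 higher by DESeq2, 9 and 3 without a filter, 6 and 12 with 20 cells, 1 higher without top doublet scores and 0 higher with 3 cells (2 higher and 0 lower without CC002, CC075 or CC080, none of which can change this contrast). For class against the other macrophages they were 0 and 0 by DESeq2, 37 higher with library size alone, 12 and 18 with 20 cells, 1 and 0 with 3 cells, and 17 lower without pool 12 (0 to 124 and 0 to 134). For treatment against the other macrophages they were 5 and 0 by DESeq2, 3 lower with library size alone, 5 lower without a filter, 10 and 3 with 20 cells, 7 higher without top doublet scores, 0 and 0 with 3 cells, and 13 higher without pool 12 (2 to 35 and 0 to 10).

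Among named genes the class difference of Lyz2 turned to -0.93 with 20 cells, -0.71 without top doublet scores, -0.31 with 3 cells and -0.77 without pool 12 (-0.77 to 2.14 without a strain), and that of Ctsk to 0.45 with 3 cells. Against the other macrophages the class difference of Ccl2 turned to -1.74 with 20 cells, -1.51 without top doublet scores and -1.43 without pool 12 (-1.43 to 4.97), and that of Cxcl2 to -0.30 with 20 cells and -0.17 without pool 12 (-0.26 to 4.94). With a strain left out the class difference against the other macrophages ranged from -4.67 to -1.44 for AA467197, from -2.68 to -0.79 for Gatm and from -4.73 to -0.83 for Jdp2. The treatment difference of Cxcl2 turned to -0.96 with 20 cells. The cause of these changes was not tested. Of 254 values of named genes 157 kept direction and side.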
